A study of Mus musculus with 2 samples.

Results

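Mpo, Elane, Prtn3, Ctsg and Ms4a3, 5 of the 27998 genes in the count matrix, were described across early thymic progenitors of the mouse thymus. They were taken by gene symbol, and every symbol matched 1 row. The cells came from C57BL/6 mice that carry the yfp reporter on both alleles of Bcl11b (Bcl11b yfp/yfp), a regulator of T-lineage commitment. Ages and animal numbers are not stated in the labels. All 5 sorts were Lin- (negative for lineage antigens), 7AAD- (excluding a dye that enters dead cells) and Kit+. The 4 gated sorts were also CD25- and Bcl11b-, and they were Flt3- Ly6d+ (847 cells), Flt3- Ly6d- HSA- (1205 cells), Flt3+ HSA+ (1182 cells; the gate names no Ly6d state) and Flt3+ Ly6d- HSA- (1412 cells). The control sort had no further gate (3302 cells), so it spans progenitors and later, committed cells. Each sort carried a hashtag, an antibody with a DNA barcode, and all went through 1 droplet library. Each population is therefore 1 sort, with no replicates. Cells of 1 sort are not replicates either, so no test between sorts was run, and every interval below is 95% and covers counting error only.

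Mpo encodes myeloperoxidase, the haem enzyme of neutrophil primary granules that makes hypochlorous acid. Elane (neutrophil elastase), Prtn3 (proteinase 3) and Ctsg (cathepsin G) encode related serine proteases packed into the same granules at the promyelocyte stage of granulocyte development. Ms4a3 encodes a membrane protein of granulocyte-monocyte progenitors and is no granule protein. Early thymic progenitors are known to keep some myeloid potential, and the question addressed here is whether these transcripts were spread thinly over the progenitors or held by few cells.

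In GENCODE M21 (build GRCm38), Mpo lies at chr11:87793581-87804413 on the plus strand and has 14 exons in its longest transcript. Prtn3 (chr10:79874476-79883174) and Elane (chr10:79886247-79888215) are neighbours on the plus strand with 3072 bases between them, and each has 5 exons. Ctsg (chr14:56099881-56102574, minus strand, 5 exons) and Ms4a3 (chr19:11629496-11640851, minus strand, 7 exons) lie on other chromosomes. The promoter windows of all 5 genes follow, because most RNA of each gene was found in the same small set of cells. Mpo was also spread over many other cells. They are 300 bases each, from RefSeq on GRCm38.p6, read 5′ to 3′ on the gene's strand, and they run from 250 bases before the RefSeq start to 50 bases past it. For Mpo, Elane and Prtn3 that start lies inside the GENCODE gene. Capitals mark AGGAAGT, a core that PU.1, the myeloid factor encoded by Spi1, can bind.
Mpo, chr11:87793534-87793833, plus strand: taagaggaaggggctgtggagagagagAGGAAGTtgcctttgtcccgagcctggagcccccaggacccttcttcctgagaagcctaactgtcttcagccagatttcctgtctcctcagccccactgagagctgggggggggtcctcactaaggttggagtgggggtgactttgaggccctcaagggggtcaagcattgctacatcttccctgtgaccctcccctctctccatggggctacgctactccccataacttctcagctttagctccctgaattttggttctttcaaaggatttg
Elane, chr10:79886062-79886361, plus strand: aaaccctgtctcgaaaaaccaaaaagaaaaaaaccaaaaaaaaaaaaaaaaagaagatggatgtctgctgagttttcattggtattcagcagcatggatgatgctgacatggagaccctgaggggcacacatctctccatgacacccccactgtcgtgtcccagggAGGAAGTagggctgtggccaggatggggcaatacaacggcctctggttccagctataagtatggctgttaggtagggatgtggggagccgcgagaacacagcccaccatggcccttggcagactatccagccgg
Prtn3, chr10:79879417-79879716, plus strand: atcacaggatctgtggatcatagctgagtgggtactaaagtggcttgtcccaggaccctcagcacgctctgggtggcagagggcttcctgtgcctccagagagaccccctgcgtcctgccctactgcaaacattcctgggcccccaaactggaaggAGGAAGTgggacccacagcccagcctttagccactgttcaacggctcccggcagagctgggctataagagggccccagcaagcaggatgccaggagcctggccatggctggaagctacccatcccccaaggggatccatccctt
Ctsg, chr14:56102525-56102824, minus strand: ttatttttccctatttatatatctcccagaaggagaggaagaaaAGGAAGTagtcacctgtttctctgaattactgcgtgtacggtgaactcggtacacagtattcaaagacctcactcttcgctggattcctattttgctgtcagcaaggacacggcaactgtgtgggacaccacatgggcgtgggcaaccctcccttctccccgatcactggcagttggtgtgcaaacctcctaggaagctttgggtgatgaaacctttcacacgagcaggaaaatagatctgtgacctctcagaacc
Ms4a3, chr19:11640802-11641101, minus strand: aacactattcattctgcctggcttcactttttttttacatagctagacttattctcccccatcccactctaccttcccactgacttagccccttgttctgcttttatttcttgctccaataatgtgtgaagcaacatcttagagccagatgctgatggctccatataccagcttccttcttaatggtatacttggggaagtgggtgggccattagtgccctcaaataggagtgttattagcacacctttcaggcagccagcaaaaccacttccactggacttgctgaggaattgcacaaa
Both strands were searched for 4 motifs. AGGAAGT began at position -223 of Mpo, -84 of Elane, -94 of Prtn3 and -206 of Ctsg, counting the RefSeq start as 0, and these letters were not in the Ms4a3 window. It was in 9.35% of 32851 RefSeq mouse promoter windows of this length. CAACNG, a core for the factor MYB, began at position -51 of Elane, -56 of Prtn3, and -93 and -36 of Ctsg, and was in 35.0% of the windows. TGTGGT, a RUNX core, was in the Ctsg window at -79 (minus orientation) and in 16.8% of all windows. TTGCNNAA, a C/EBP core, was in the Ms4a3 window at 41 and in 10.8% of all windows. No match overlapped another. A match is a description of the letters and no evidence of binding.

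The count matrix held 10616041 to 57199129 UMIs per sort. The median cell had 11404 UMIs in the Flt3- Ly6d+ sort, 9860 in the Flt3- Ly6d- HSA- sort, 21151.5 in the Flt3+ HSA+ sort, 15477.5 in the Flt3+ Ly6d- HSA- sort and 16040 in the control. Levels are UMIs summed over cells and scaled to 1000000 per sort (CPM), and shares of cells are also given after each cell was thinned to 3000 UMIs. UMIs were counted from the 3′ end, where a molecule gives 1 count whatever its length, so levels were not divided by length. The authors gave no cell types. A granulocyte-marker class was therefore defined as cells with a UMI of at least 5 of 14 genes of granulocytes and their precursors (Cebpa, Cebpe, Csf3r, Fcnb, Gstm1, Hk3, Hp, Igsf6, Anxa3, Ly6c2, Clec12a, Lbp, S100a8 and S100a9), none of them among the 5 genes described. It is a range of a score and not a cell type, and 48 cells lay just under the threshold with 4 markers and 16 just over it with 5. Some markers were also common outside the class: Clec12a had a UMI in 62.7% of those cells, Gstm1 in 44.3% and Lbp in 11.9%. The others had a UMI in at most 2.13% of them. Doublets were not called.

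Nearly all Elane, Prtn3 and Ms4a3 RNA, and most Ctsg and Mpo RNA, sat in a small set of cells. The class held 244 of 7948 assigned cells (3.07%, exact Clopper-Pearson interval 2.70% to 3.47%) and 6.57% of their UMIs. It held 99.4% of the Elane UMIs, 99.1% of Ms4a3, 98.5% of Prtn3, 90.8% of Ctsg and 68.1% of Mpo. Class cells averaged 7192 CPM of Mpo, against 237 CPM outside the class, a 30.4-fold difference. For Elane the levels were 5955 CPM in the class and 2.67 CPM outside (2234-fold), and for Prtn3 7561 CPM and 7.85 CPM (963-fold). Ctsg stood at 4217 CPM in the class against 30.2 CPM outside (140-fold), and Ms4a3 at 1205 CPM against 0.738 CPM (1634-fold). Of the 9323 genes with 5 CPM or more on either side, 5.93% were at least 2-fold higher in the class and 15.2% at least 2-fold lower. Elane and Ms4a3 reached that minimum through the class alone and so could not fail to be counted. Mpo, Prtn3 and Ctsg reached it on both sides, and all 3 were at least 2-fold higher, against 3.99% of the 8019 genes that did so. Class cells were also deeper, with a median of 34310 UMIs against 14372 outside.

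**Figure D1:**
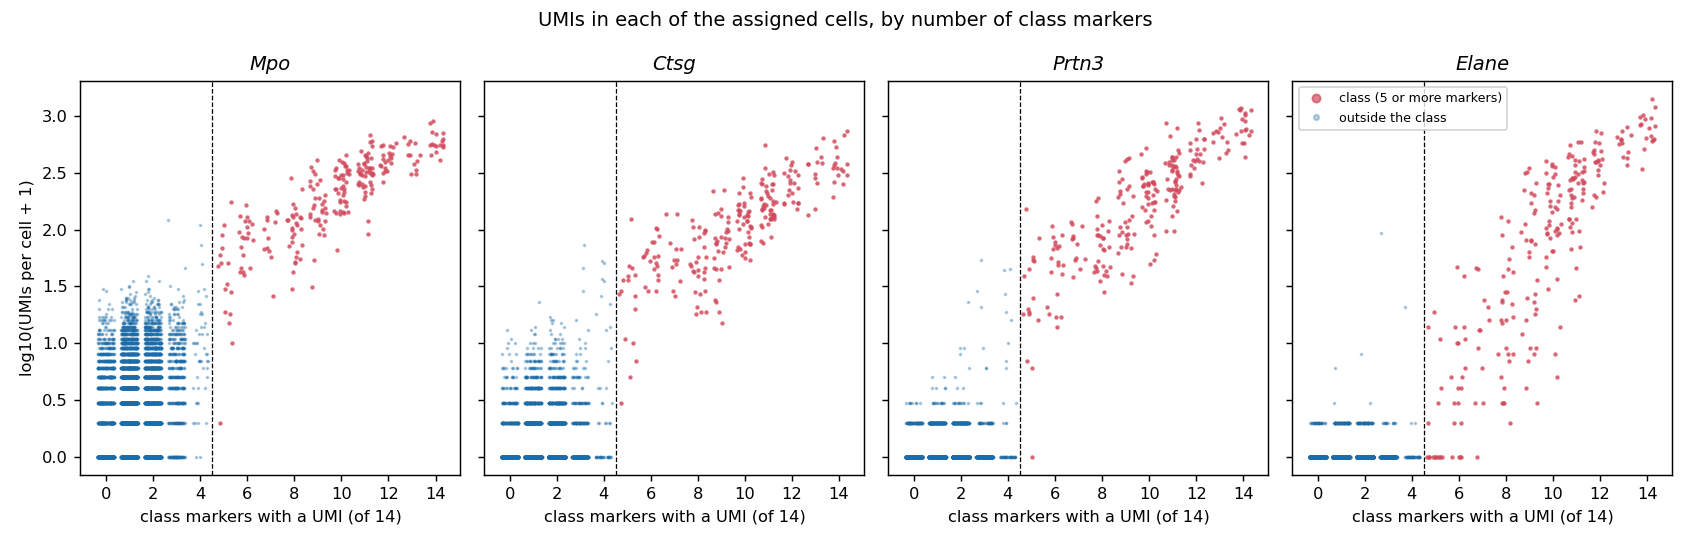
Each point is 1 of the 7948 assigned cells, with the number of the 14 class markers detected on the x axis (with small random offsets) and the log10 of UMIs plus 1 of the gene on the y axis. Mpo is spread over many cells with few markers and reaches 908 UMIs in the class, whereas Elane is at 0 or 1 UMI in nearly all cells outside the class and reaches 1412 UMIs inside it.

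The class was unevenly spread over the sorts. It held 1 cell of the Flt3- Ly6d+ sort (0.118%, 0.00299% to 0.656%), 98 of the Flt3- Ly6d- HSA- sort (8.13%, 6.65% to 9.82%), 28 of the Flt3+ HSA+ sort (2.37%, 1.58% to 3.41%), 71 of the Flt3+ Ly6d- HSA- sort (5.03%, 3.95% to 6.30%) and 46 of the control (1.39%, 1.02% to 1.85%). The number of markers seen rises with depth, and when the rule was applied to cells thinned to 3000 UMIs the shares were 0%, 2.41%, 2.04%, 2.35% and 0.677% in those sorts, so 3 of the gated sorts then lay close together. In the Flt3- Ly6d- HSA- sort the class held 20.0% of all UMIs. Kit, an antigen of every gate, stood at 41.6 CPM in the class against 81.4 CPM outside. It had a UMI in 73.4% of class cells against 65.7% of the shallower cells outside, and at 3000 UMIs per cell in 11.5% against 23.0%. Flt3 RNA in class cells followed the gates only in part. Among Ly6d- HSA- class cells it stood at 4.29 CPM (12 UMIs) in the Flt3- sort and 16.9 CPM (45 UMIs) in the Flt3+ sort. In class cells of the Flt3+ HSA+ sort it was lower than in that Flt3+ sort, at 1.44 CPM (2 UMIs). No interval was computed for these differences, and 2 UMIs are too few to place it below the Flt3- sort. Outside the class Flt3 stood at 28.6, 96.3 and 67.6 CPM in those sorts.

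Outside the class, Mpo was the one gene of the 5 that most cells of every sort carried. The share of cells with a UMI was 87.5% for Flt3- Ly6d+, 83.2% for Flt3- Ly6d- HSA-, 93.7% for Flt3+ HSA+, 77.6% for Flt3+ Ly6d- HSA- and 61.1% for the control. The counts per cell were low: of the 846 Flt3- Ly6d+ cells outside the class, 106 had 0 Mpo UMIs, 118 had 1, 299 had 2 to 4, 314 had 5 to 19 and 9 had 20 or more. The level there was 348 CPM (337 to 359) in the Flt3- Ly6d+ sort, 377 CPM (366 to 389) in the Flt3- Ly6d- HSA- sort, 299 CPM (292 to 306) in the Flt3+ HSA+ sort, 201 CPM (195 to 207) in the Flt3+ Ly6d- HSA- sort and 174 CPM (171 to 178) in the control. Ranked by level, no neighbouring sorts had overlapping intervals. The gap between the first 2 sorts named depends on the class threshold: with 3 markers they stood at 341 and 343 CPM. At 3000 UMIs per cell the first 3 of these sorts were close, at 56.0% (52.5% to 59.4%), 57.7% (54.7% to 60.7%) and 54.9% (52.0% to 57.8%) of cells with a UMI, and their intervals overlapped. The Flt3+ Ly6d- HSA- sort, at 41.2% (38.6% to 43.9%), and the control, at 34.0% (32.3% to 35.7%), lay below them.

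**Figure D2:**
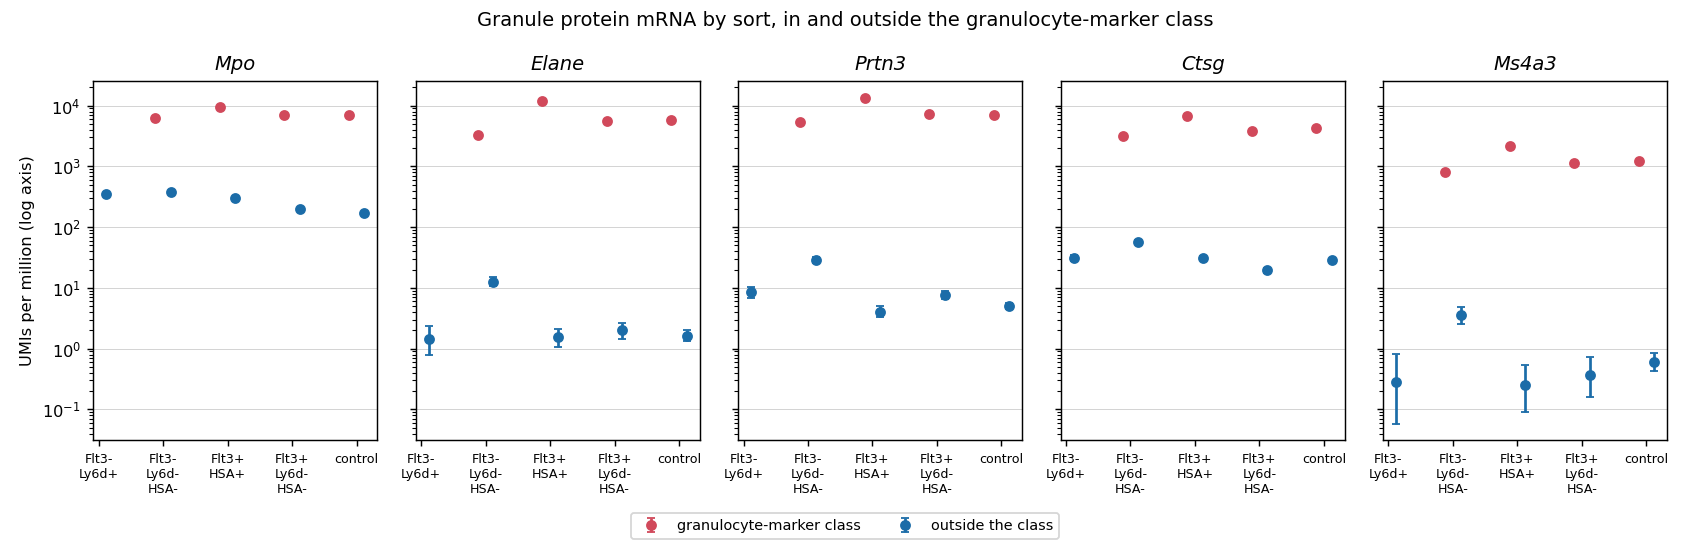
The y axis is the level in CPM (log axis) and the x axis the 5 sorts. Red points are the granulocyte-marker class and blue points the cells outside it, with exact 95% Poisson intervals, and the single class cell of the Flt3- Ly6d+ sort is not drawn. Class levels lie at 796 to 13529 CPM, and outside the class only Mpo stays above 100 CPM in every sort.

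In the control sort Mpo was lower in cells with genes of T-lineage commitment. Cells outside the class were split by Il2ra, which encodes CD25, by Bcl11b and by Cd3g, a component of the T-cell receptor complex. With neither Il2ra nor Bcl11b detected (1072 cells), Mpo stood at 309 CPM (301 to 318). It stood at 266 CPM (258 to 275) in 764 cells with Il2ra but no Bcl11b, at 54.5 CPM (51.0 to 58.2) in 832 cells with Bcl11b but no Cd3g, and at 16.9 CPM (14.4 to 19.7) in 588 cells with both Bcl11b and Cd3g. At 3000 UMIs per cell the shares of cells with an Mpo UMI were 53.5%, 54.0%, 12.3% and 3.45% in that order. The last stratum should lack the granule genes and serves here as the background. Its median cell had 15969.5 UMIs, against 11400.5, 9473, 20856.5 and 15021 outside the class in the Flt3- Ly6d+, Flt3- Ly6d- HSA-, Flt3+ HSA+ and Flt3+ Ly6d- HSA- sorts. At full depth 11.6% of the background cells had an Mpo UMI (9.09% to 14.4%), so all 4 gated sorts lay far above it. The strata were cut on detected UMIs, so a cell without a Bcl11b UMI may still express the gene.

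Ctsg had the second broadest spread. Outside the class the share of cells with a UMI was 18.4% for Flt3- Ly6d+, 17.0% for Flt3- Ly6d- HSA-, 26.3% for Flt3+ HSA+, 14.9% for Flt3+ Ly6d- HSA- and 20.0% for the control, against 6.46% (4.61% to 8.76%) of background cells. Its level was 31.0 CPM, 57.6 CPM, 30.9 CPM, 19.7 CPM and 28.3 CPM in those sorts, and 6.29 CPM in the background. In the Flt3- Ly6d- HSA- sort 10 cells held 47.7% of the Ctsg UMIs outside the class, and without the 10 cells with most UMIs of the 5 genes its level was 31.8 CPM. That level was 33.0 CPM with a class threshold of 3 markers and 130.5 CPM with 7. With 7 markers the Flt3+ Ly6d- HSA- sort also moved, to 33.7 CPM. The Flt3- Ly6d+ and Flt3+ HSA+ sorts did not differ beyond their intervals (27.8 to 34.6 and 28.7 to 33.2 CPM). Within the control Ctsg was highest where Il2ra was detected without Bcl11b, at 47.7 CPM (43.98 to 51.6), against 36.7 CPM (33.9 to 39.8) with neither gene detected. It was at 17.2 CPM in cells with Bcl11b but no Cd3g. Mpo had the opposite order in the first pair of strata. Mouse mast cells are also known to express Ctsg, and the mast cell protease Cma1 had UMIs outside the class in 7 cells of the Flt3- Ly6d- HSA- sort, 2 of the Flt3+ HSA+ sort and 8 of the control. The part of these cells in the Ctsg level was not tested.

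**Figure D3:**
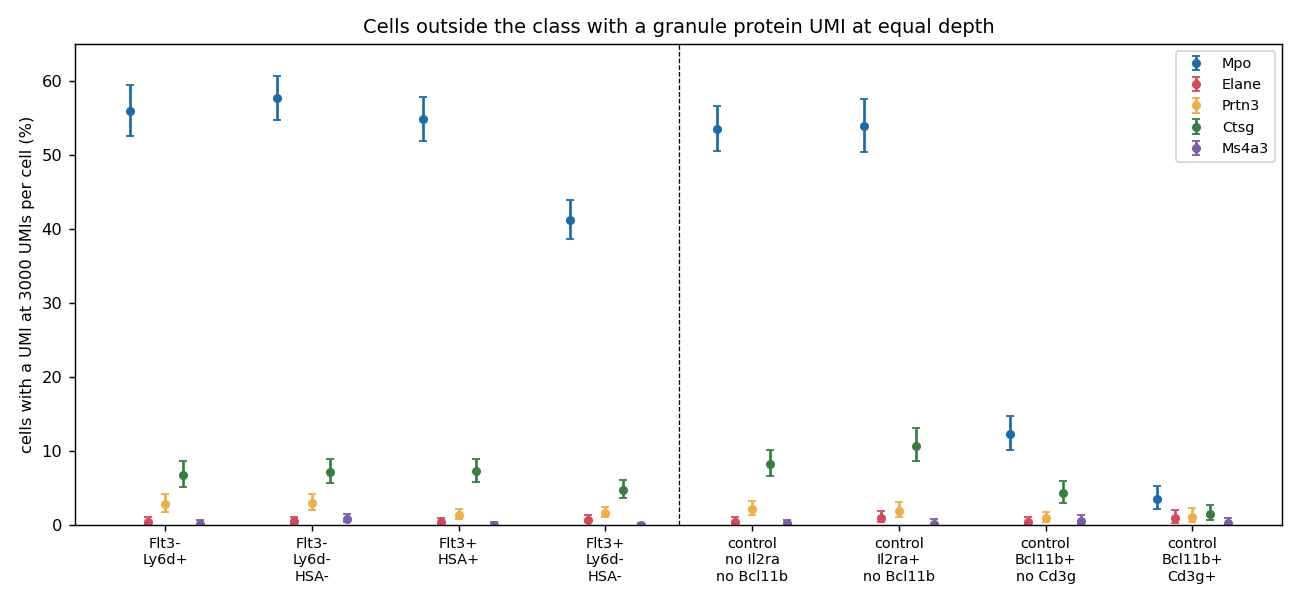
The y axis is the percentage of cells outside the class with at least 1 UMI of the gene after each cell was thinned to 3000 UMIs, with exact 95% Clopper-Pearson intervals. The x axis gives the 4 gated sorts and, right of the dashed line, the control sort in 4 strata by T-lineage genes. Mpo lies at 41.2% to 57.7% in the gated sorts and at 12.3% and 3.45% in control cells with Bcl11b, and Elane lies under 1% throughout.

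Elane showed no broad low expression. Outside the class the share of cells with a UMI was 1.77% for Flt3- Ly6d+, 2.53% for Flt3- Ly6d- HSA-, 3.12% for Flt3+ HSA+, 2.83% for Flt3+ Ly6d- HSA- and 2.76% for the control. The background cells had 3.06% (1.82% to 4.80%), so these shares lay at the background. The level was 1.42 CPM in the Flt3- Ly6d+ sort, 1.53 CPM in the Flt3+ HSA+ sort, 2.004 CPM in the Flt3+ Ly6d- HSA- sort and 1.64 CPM in the control, with overlapping intervals, and 1.89 CPM (1.12 to 2.98) in the background. The exception was the Flt3- Ly6d- HSA- sort at 12.7 CPM (10.7 to 14.9). There 10 cells held 87.3% of the Elane UMIs outside the class, and 1 cell held 92 of its 142.

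Prtn3 lay between Ctsg and Elane. Its share of cells with a UMI was 9.57% for Flt3- Ly6d+, 7.23% for Flt3- Ly6d- HSA-, 7.97% for Flt3+ HSA+, 8.35% for Flt3+ Ly6d- HSA- and 7.03% for the control, against 4.25% (2.77% to 6.21%) of background cells. Its level was 8.59 CPM (6.91 to 10.5) for Flt3- Ly6d+, 29.1 CPM (26.1 to 32.5) for Flt3- Ly6d- HSA-, 4.09 CPM (3.32 to 4.97) for Flt3+ HSA+, 7.70 CPM (6.58 to 8.95) for Flt3+ Ly6d- HSA- and 5.11 CPM (4.53 to 5.74) for the control. The background stood at 2.83 CPM (1.86 to 4.12), so every sort but Flt3+ HSA+ had an interval above it. The level depends on the class threshold: with 3 and 7 markers it was 10.95 and 98.8 CPM in the Flt3- Ly6d- HSA- sort, 5.90 and 25.1 CPM in the Flt3+ Ly6d- HSA- sort and 4.47 and 11.7 CPM in the control. At 3000 UMIs per cell the shares were 2.79% (1.77% to 4.15%), 2.92% (1.99% to 4.12%), 1.31%, 1.57% and 1.53%, and 1.04% (0.381% to 2.24%) in the background. At that depth the intervals of all 5 sorts overlapped that of the background. In the Flt3- Ly6d- HSA- sort 10 cells held 70.0% of the Prtn3 UMIs outside the class. Outside the class Ms4a3 had 3 UMIs in the Flt3- Ly6d+ sort (846 cells), 40 in the Flt3- Ly6d- HSA- sort (1107 cells), 6 in the Flt3+ HSA+ sort (1154 cells), 8 in the Flt3+ Ly6d- HSA- sort (1341 cells) and 34 in the control (3256 cells). Background cells had 3 Ms4a3 UMIs in 588 cells, 0.314 CPM (0.0648 to 0.919), and only the Flt3- Ly6d- HSA- sort, at 3.57 CPM (2.55 to 4.86), had an interval above that one. Of its 40 UMIs, 82.5% sat in 10 cells, and its level was 1.65 CPM with a class threshold of 3 markers and 11.7 CPM with 7.

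The make-up of the RNA differed between class cells and the rest. In the class Mpo was 27.5% of the UMIs of the 5 genes, Elane 22.8%, Prtn3 28.9%, Ctsg 16.1% and Ms4a3 4.61%. Outside the class Mpo was 85.1%, Elane 0.958%, Prtn3 2.82%, Ctsg 10.8% and Ms4a3 0.265%. There were 0.828 Elane UMIs per Mpo UMI in the class, against 0.0113 outside and 0.112 in the background cells. The background cells had 59.9% Mpo, 6.69% Elane, 10.0% Prtn3, 22.3% Ctsg and 1.12% Ms4a3 among 269 UMIs. The part of free RNA in these ratios was not tested. Of the class cells 212 of 244 had a UMI of all 5 genes, against 1 of 7704 cells outside.

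**Figure D4:**
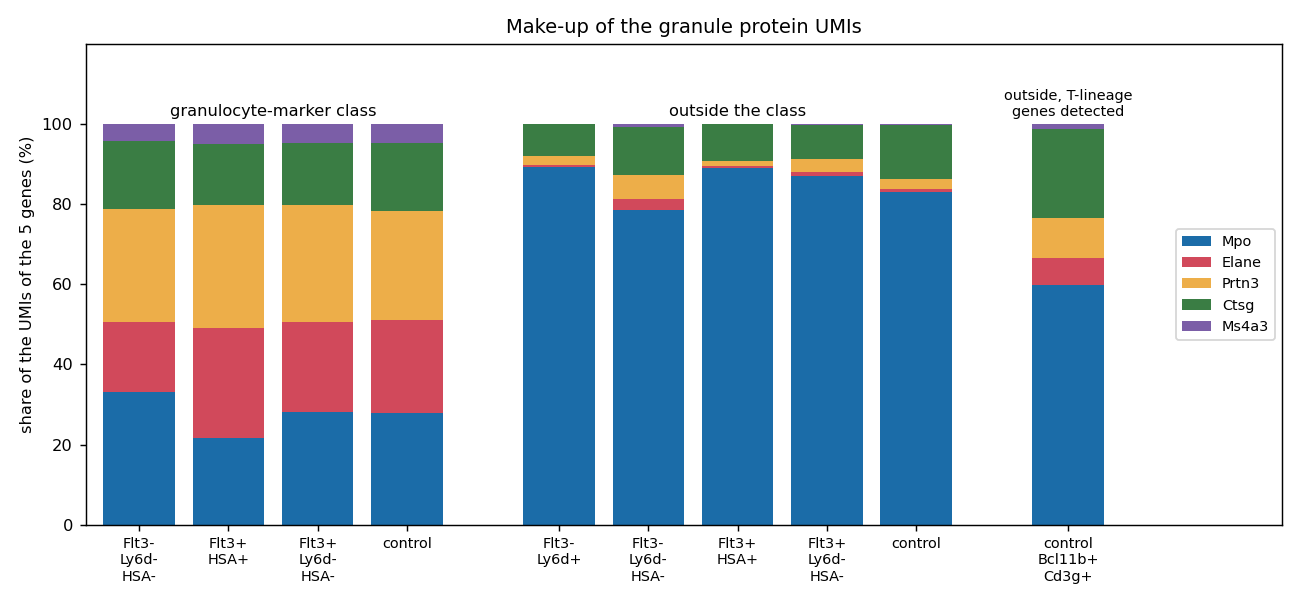
Each bar splits the UMIs of the 5 genes (y axis, percent) in the class by sort, outside the class by sort, and in control cells outside the class with Bcl11b and Cd3g. The single class cell of the Flt3- Ly6d+ sort is not drawn. Mpo is 21.6% to 33.2% of a drawn bar in the class, 78.6% to 89.4% outside it by sort and 59.9% in the last bar.

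Class cells of different sorts did not carry the genes at the same level. Elane stood at 3329 CPM (3262 to 3397) in the 98 Flt3- Ly6d- HSA- class cells, at 12146 CPM in the 28 Flt3+ HSA+ class cells, at 5599 CPM in the 71 Flt3+ Ly6d- HSA- class cells and at 5874 CPM in the 46 control class cells. Prtn3 stood at 5362, 13529, 7257 and 6926 CPM in those sets, Ctsg at 3229, 6782, 3881 and 4323 CPM, Ms4a3 at 796, 2149, 1149 and 1209 CPM, and Mpo at 6321, 9534, 7004 and 7092 CPM. All 5 were highest in the Flt3+ HSA+ class cells, and the spread was widest for Elane. The class cells of the sorts also differed in the score itself, with a median of 9, 13, 10 and 10 markers in that order. Their median cell had 29445.5, 47218.5, 35457 and 39882 UMIs. The part of marker number and depth in the differences between sorts was not tested. Per Mpo UMI there were 0.527 Elane UMIs in the Flt3- Ly6d- HSA- class cells, 1.27 in Flt3+ HSA+, 0.799 in Flt3+ Ly6d- HSA- and 0.828 in control class cells. The single class cell of the Flt3- Ly6d+ sort had 18 Mpo, 5 Prtn3 and 4 Ctsg UMIs and none of Elane or Ms4a3 among 19712.

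Cells within a class set ranged widely. In UMIs per 10000 UMIs of a cell, Elane had a lowest value of 0, a median of 25.8 and a highest value of 109 in the Flt3- Ly6d- HSA- class cells, against 0.327, 128 and 225 in the Flt3+ HSA+ class cells. For Mpo these values were 6.46, 60.4 and 150 in the Flt3- Ly6d- HSA- class cells and 7.19, 100.1 and 145 in the Flt3+ HSA+ class cells. Over the 244 class cells, Pearson's r of the log values was 0.900 for Elane and Prtn3, the neighbouring pair, while the lowest values were 0.7565 for Elane and Ctsg and 0.7555 for Ctsg and Ms4a3. By sort that neighbouring pair was highest only in the Flt3- Ly6d- HSA- class cells, at 0.902. The highest pair was Prtn3 and Ms4a3 in Flt3+ HSA+ (0.9475) and Elane and Ms4a3 in Flt3+ Ly6d- HSA- (0.913). In the control class cells it was Mpo and Prtn3 (0.9035). These cells share 1 library, so r is a description.

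Other granulocyte genes also differed between class cells of the sorts. S100a8 and S100a9, the calgranulins of maturing neutrophils, stood at 4.29 and 0 CPM in the Flt3- Ly6d- HSA- class cells, at 3779 and 2420 CPM in the Flt3+ HSA+ class cells, at 296 and 39.0 CPM in the Flt3+ Ly6d- HSA- class cells and at 266 and 22.1 CPM in control class cells. Fcnb, a ficolin of neutrophil granules, stood at 1.43, 164, 14.98 and 6.63 CPM in those sets, and Cebpe, the factor needed for secondary granules, at 121, 210, 80.5 and 146 CPM. All 4 were highest in the Flt3+ HSA+ class cells, but Cebpe was lowest in the Flt3+ Ly6d- HSA- class cells and the others in the Flt3- Ly6d- HSA- class cells. Over the class as a whole S100a8 had a UMI in 23.4% of cells, S100a9 in 10.2%, Fcnb in 13.9% and Cebpe in 56.6%. The pooled levels of S100a8, S100a9 and Fcnb thus come from a minority of class cells. These 4 genes belong to the class markers, so their presence in the class is not a finding. Irf8, a monocyte and dendritic cell regulator, was lowest in the Flt3+ HSA+ class cells at 124 CPM, against 229 CPM in Flt3- Ly6d- HSA-, 353 CPM in Flt3+ Ly6d- HSA- and 149 CPM in control class cells. Cd34, a progenitor antigen, stood at 53.4 CPM in the Flt3+ HSA+ class cells against 217 CPM in the Flt3- Ly6d- HSA- class cells.

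Of 10 other primary granule genes, all with 5 CPM or more on both sides, 7 were at least 2-fold higher in the class than outside and 0 were lower, against 3.99% and 8.79% of all 8019 such genes. Cd63, a granule membrane protein, was 21.1-fold higher, Rab44 8.71-fold, Prss57, a serine protease of the same granules, 5.52-fold, Hexa 5.11-fold and lysozyme (Lyz2) 3.68-fold. Ctsc, the cathepsin that activates these serine proteases, was 1.86-fold higher, at 86.8 CPM in the class against 46.7 CPM outside. The list's median log2 ratio was 1.68, against -0.17 over all 9323 genes. Of 8 secondary and tertiary granule genes only Lcn2 (25.1 CPM in the class, 1 UMI outside) and Chil3 (14.6 CPM in the class, 0 UMIs outside) reached 5 CPM. Their 8 genes together stood at 12.9 CPM in the Flt3- Ly6d- HSA- class cells, 128 CPM in Flt3+ HSA+, 36.7 CPM in Flt3+ Ly6d- HSA- and 29.8 CPM in control class cells. Ltf, the secondary granule protein lactoferrin, had 0 UMIs in the class, which allows at most 0.425 CPM by the exact Poisson interval.

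Of 9 myeloid regulators 7 had 5 CPM or more on both sides, and of these 4 were at least 2-fold higher in the class and 1 was lower, against the same 3.99% and 8.79%. The other 2, Cebpa and Cebpe, are class markers. Irf8 was 13.8-fold, Cebpb 3.61-fold, Spi1 (PU.1) 2.27-fold and Gfi1, a repressor needed for neutrophils, 2.09-fold higher, and Myb stood at 259 CPM in the class against 247 CPM outside. Runx1 stood at 61.4 CPM in the class against 143 CPM outside. Of 12 T-lineage genes, Tcf7 and Notch1 reached 5 CPM on both sides and both were at least 2-fold lower in the class, with Tcf7, a T-lineage factor, at 6.45 CPM in the class against 146 CPM outside. The other 10 reached the minimum outside the class only, such as Gata3, another T-lineage factor, at 0.576 CPM in the class against 38.5 CPM outside, and Hes1, a Notch target, at 2.76 CPM against 125 CPM. Of the 9 of 10 progenitor genes at 5 CPM or more on both sides 5 were lower, such as Bcl11a (32.0 CPM in the class against 155 CPM outside), against 8.79% of all genes, and 1, Lmo2, was 3.94-fold higher, against 3.99%.

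Between sorts, the level of the 5 genes over all cells followed the class. They summed to 391 CPM in the Flt3- Ly6d+ sort, 4187 CPM in the Flt3- Ly6d- HSA- sort, 2703 CPM in the Flt3+ HSA+ sort, 2904 CPM in the Flt3+ Ly6d- HSA- sort and 1007 CPM in the control. In bulk sums like these, fewer cells of a kind and less RNA per cell cannot be told apart, which is why each comparison is also given outside the class. A gene was counted at a 2-fold difference with at least 5 CPM on either side. Since a gene that reaches 5 CPM on its high side alone is bound to be counted once the other side is low enough, counts of the 5 genes are also given for 5 CPM on both sides, a rule added after the values were seen.

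The first comparison asked what differs with loss of surface Flt3 among Ly6d- HSA- cells. Over all cells the Flt3- sort was 1.67-fold higher for Mpo (1.64 to 1.70), 1.11-fold for Elane (1.08 to 1.14), 1.38-fold for Prtn3, 1.58-fold for Ctsg and 1.30-fold for Ms4a3. Of the 5, each at 5 CPM or more on both sides, 0 reached 2-fold, against 0.675% of 8743 genes (1.19% of 9210 with the minimum on either side). Outside the class Mpo stood at 377 CPM in Flt3- cells and 201 CPM in Flt3+ cells (1.88-fold), Elane at 12.7 and 2.004 CPM (6.32-fold), Prtn3 at 29.1 and 7.70 CPM (3.79-fold) and Ctsg at 57.6 and 19.7 CPM (2.93-fold). Elane reached 5 CPM in the Flt3- sort alone. Of Mpo, Prtn3 and Ctsg, at 5 CPM or more on both sides, the last 2 passed 2-fold, against 0.943% of 8693 genes (1.73% of 9234 with the minimum on either side). The 10 highest cells of a sort are those with most UMIs of these same 5 genes. Leaving them out therefore lowers a sort with a few very high cells most, by construction. With the 10 highest cells of each sort also left out, the ratios were 1.76 for Mpo (1.68 to 1.84), 1.64 for Elane (0.975 to 2.74), 1.64 for Prtn3 (1.24 to 2.15) and 1.80 for Ctsg (1.56 to 2.09), all under 2. Ms4a3, at 1.81 CPM in Flt3- cells (20 UMIs) against 0.369 CPM in Flt3+ cells (8 UMIs), had a ratio of 4.92 (2.08 to 12.9) there, and 9.79 (4.52 to 24.2) with those cells kept.

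The second comparison set Flt3+ HSA+ against Flt3+ Ly6d- HSA- cells. Over all cells the ratios were 0.850 for Mpo, 1.08 for Elane, 0.926 for Prtn3, 0.903 for Ctsg and 0.931 for Ms4a3, and 0 of the 5 were 2-fold higher, against 0.16% of 8769 genes with the minimum on both sides (0.331% of 9066 on either side). Outside the class Mpo was 1.49-fold higher in HSA+ cells (1.43 to 1.54) and Ctsg 1.57-fold higher (1.39 to 1.77), while the Prtn3 ratio was 0.531 (0.410 to 0.684). Of these 3 genes 0 were 2-fold lower, against 0.144% of 9045 genes (0.0457% of 8753 with the minimum on both sides, which Prtn3 did not reach). Mpo and Ctsg, with ratios above 1, could not be counted as lower. In the higher direction 0 of the 3 reached 2-fold, against 37 of the 9045 genes (22 of the 8753). Without the 10 highest cells of each sort the Prtn3 ratio was 0.702 (0.529 to 0.929). Mpo and Ctsg thus lay on opposite sides of 1 with and without the class, and the HSA+ class was 28 cells against 71.

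The third comparison set Flt3- Ly6d+ against Flt3- Ly6d- HSA- cells. Over all cells Mpo, Prtn3 and Ctsg, at 5 CPM or more in both sorts, were all lower by 2-fold or more in the Ly6d+ sort, against 0.386% of 8803 genes (1.04% of 9178 with the minimum on either side). Elane and Ms4a3 reached 5 CPM in the Ly6d- HSA- sort alone. Mpo was 4.48-fold lower (4.33 to 4.64), at 349 CPM in Ly6d+ cells against 1565 CPM, and Ctsg 22.0-fold lower, at 31.4 CPM against 691 CPM. Elane was 478-fold lower on 15 UMIs (290 to 854), Prtn3 121-fold lower on 96 UMIs and Ms4a3 573-fold lower on 3 UMIs (196 to 2781). Outside the class Mpo had a ratio of 0.922 (0.882 to 0.964), Ctsg 0.539 (0.471 to 0.617) and Prtn3 0.295 (0.231 to 0.373). Of these 3 genes, at 5 CPM or more on both sides, 1 was still 2-fold lower, against 0.125% of 8807 genes (0.436% of 9182 with the minimum on either side). Elane, at 5 CPM or more in the Ly6d- HSA- sort alone, had a ratio of 0.112. Without the 10 highest cells of each sort as well, the ratios were 0.978 for Mpo (0.934 to 1.02), 0.914 for Prtn3 (0.676 to 1.23), 0.876 for Ctsg (0.747 to 1.03) and 0.532 for Elane (0.266 to 1.02). These 4 intervals, taken after leaving out cells by their UMIs of these same genes, include 1. That of Ms4a3 did not, at 0.160 (0.0304 to 0.538) on 3 UMIs in Ly6d+ cells against 20. For Elane, with 15 UMIs in Ly6d+ cells against 30, a difference was not detectable at this depth.

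**Figure D5:**
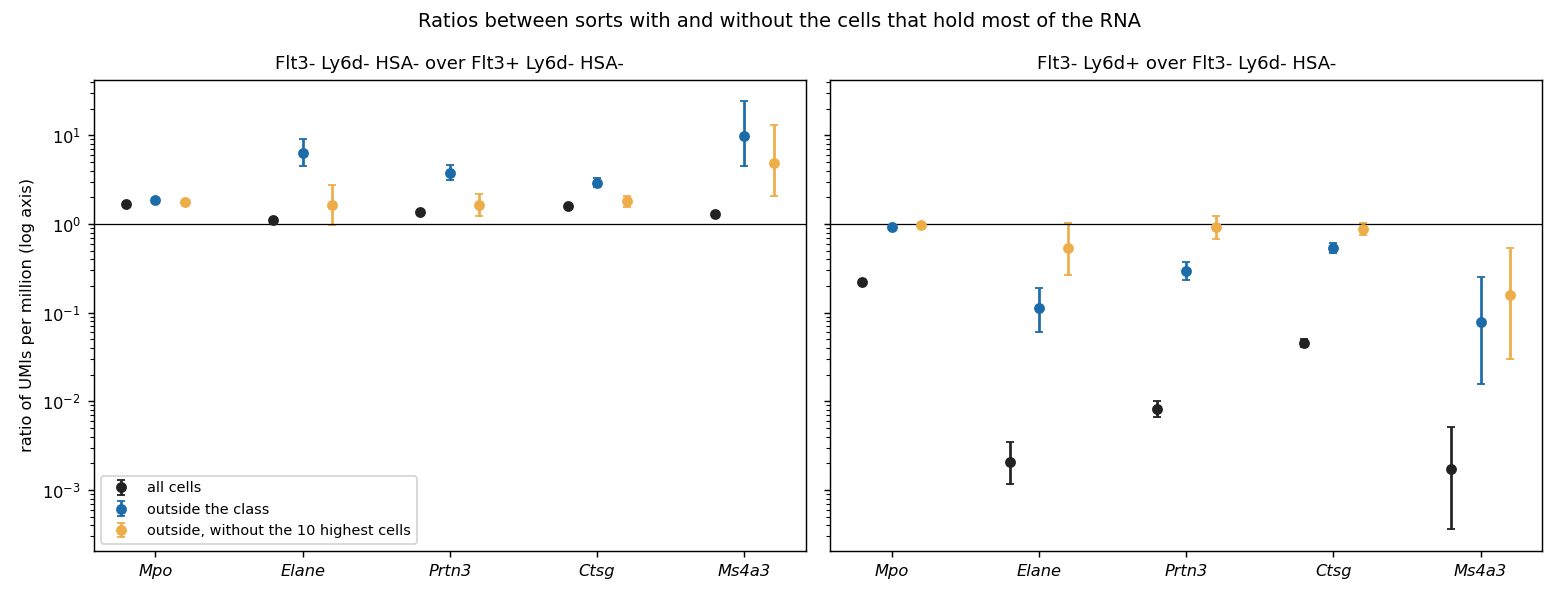
The y axis is the ratio of CPM values (log axis), with exact 95% binomial intervals, and the x axis the 5 genes. Black points use all cells, blue points cells outside the class, and yellow points leave out the 10 highest cells of each sort there as well. In the right panel the Mpo ratio is 0.922 without the class, against 0.223 over all cells, and the yellow points of Mpo, Prtn3 and Ctsg lie at 0.876 to 0.978.

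The last comparison set the mean of the 4 gated sorts against the control. Over all cells all 5 genes, each at 5 CPM or more on both sides, were at least 2-fold higher in the gated sorts, against 0.647% of 8815 genes (1.13% of 9206 with the minimum on either side). The ratios were 2.32 for Mpo (2.29 to 2.36), 2.59 for Elane, 2.94 for Prtn3, 2.37 for Ctsg and 2.60 for Ms4a3. The gated mean hides the Flt3- Ly6d+ sort, in which all 5 genes lay below the control. There Elane stood at 1.41 CPM against the control's 187 CPM, and Mpo at 349 against 393 CPM. Outside the class the ratios were 1.76 for Mpo (1.72 to 1.81), 2.42 for Prtn3 (2.11 to 2.79) and 1.23 for Ctsg (1.15 to 1.31), and of these 3 genes, at 5 CPM or more on both sides, 1, Prtn3, passed 2-fold, against 0.546% of 8797 genes (1% of 9196 with the minimum on either side). The Prtn3 mean was raised by the Flt3- Ly6d- HSA- sort, at 29.1 CPM. Flt3- Ly6d+ stood at 8.59 CPM, Flt3+ Ly6d- HSA- at 7.70 CPM and Flt3+ HSA+ at 4.09 CPM, against the control's 5.11 CPM. Without the 10 highest cells of each sort the ratio was 1.72 for Mpo (1.67 to 1.76), 1.49 for Prtn3 (1.26 to 1.75) and 1.05 for Ctsg (0.976 to 1.13), whose interval then included 1. Elane and Ms4a3, under 5 CPM on both sides, had ratios of 2.68 (2.10 to 3.42) and 1.82 (1.18 to 2.79) outside the class, and of 1.11 (0.837 to 1.47) and 1.39 (0.838 to 2.31) without those cells. The control stratum with neither Il2ra nor Bcl11b had 309 CPM of Mpo, within the 201 to 377 CPM of the gated sorts.

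Cells with and without an Mpo UMI were then compared outside the class at 3000 UMIs per cell. In the control, 6 of 10 progenitor genes were at least 1.5-fold higher in Mpo-positive cells, against 3.48% of all genes with 5 CPM or more on both sides, among them Mef2c (272 CPM in Mpo-positive cells against 136 CPM in Mpo-negative cells), Lmo2 (49.3 against 27.6 CPM) and Cd34 (271 against 154 CPM). Of the 11 of 12 T-lineage genes at that level on both sides 5 were at least 1.5-fold lower, against 4.07% of all genes. Bcl11b stood at 27.2 CPM in Mpo-positive cells against 336 CPM in Mpo-negative cells, Thy1 at 13.8 against 108 CPM and Cd3g at 26.6 against 549 CPM, whereas Cd7 was 2.05-fold higher. In each of the 4 gated sorts 0 of 10 progenitor genes were higher, against 6.03% (Flt3- Ly6d+), 4.32% (Flt3- Ly6d- HSA-), 3.96% (Flt3+ HSA+) and 3.84% (Flt3+ Ly6d- HSA-) of all genes, so a count of 0 lies near the background. Of the T-lineage genes at 5 CPM or more on both sides, 1 of 8, 1 of 8, 0 of 7 and 1 of 7 were lower in those sorts, against 6.09%, 5.03%, 4.01% and 3.52% of all genes. The first was Il2ra, at 26.7 CPM in Mpo-positive cells against 45.9 CPM in Mpo-negative cells of the Flt3- Ly6d+ sort. There Bcl11b had 2 UMIs in Mpo-positive cells against 12, and Thy1 4 against 7. The other was Il7r, the interleukin-7 receptor, in the Flt3- Ly6d- HSA- sort (13.6 against 31.9 CPM) and the Flt3+ Ly6d- HSA- sort (11.5 against 25.1 CPM), while its ratio was 1.04 (0.651 to 1.67) in the Flt3- Ly6d+ sort and 0.972 (0.596 to 1.59) in the Flt3+ HSA+ sort. The other way, 1 of 8 T-lineage genes was at least 1.5-fold higher in Mpo-positive Flt3- Ly6d- HSA- cells, against 4.32% of all genes. It was Il2ra, at 16.9 against 11.1 CPM (ratio 1.51, 0.793 to 3.02), and 0 were higher in the other gated sorts. Of 10 progenitor genes 1, Meis1, was lower in the Flt3+ Ly6d- HSA- sort, against 3.52% of all genes, and 0 in the others. It stood at 21.8 against 32.7 CPM (ratio 0.666, 0.436 to 1.002). Of 9 myeloid regulators 7 had 5 CPM or more on both sides in every sort. Of these, 1 of 7 was at least 1.5-fold higher in Flt3+ HSA+ cells, against 3.96% of all genes. In the other sorts 0 were higher, and 0 were lower in any sort. Cebpa, a class marker under that minimum, had 14 UMIs in 613 Mpo-positive cells and 1 UMI in 449 Mpo-negative cells of the Flt3- Ly6d- HSA- sort. It had 1 against 0 UMIs in Flt3- Ly6d+, 0 against 2 in Flt3+ HSA+, 0 against 1 in Flt3+ Ly6d- HSA- and 2 against 0 in the control. Ctsg had a UMI in 10.3% of Mpo-positive control cells (8.54% to 12.2%) against 4.63% of Mpo-negative ones (3.78% to 5.62%), while in each gated sort its intervals in both sets overlapped, and Elane was in 0.826% against 0.473% of control cells. All cells outside the class with fewer than 3000 UMIs were left out.

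The genes most like the 5 across all 7948 assigned cells were ranked by mean Pearson's r of log values, over 13103 genes with a UMI in at least 20 cells. They were Igsf6 (0.804), Hp (0.799), Anxa3 (0.769), Ly6c2 (0.746), Trem3 (0.739), Hk3 (0.738), Cldn15 (0.682), Cebpa (0.660), Gda (0.646), Mrgpra2b (0.642), Dmkn (0.636) and Cebpe (0.622). Of these 12, Igsf6, Hp, Anxa3, Ly6c2, Hk3, Cebpa and Cebpe are class markers. Ly6c2 and Mrgpra2b have close relatives whose reads the counting could share with them, so their values are uncertain. Among the 5 genes Elane and Ms4a3 had the highest r, at 0.943, and Elane and Prtn3 0.918, while Mpo had 0.563 to 0.601 with the other genes. All points share 1 library and differ in depth, so r is a description.

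Genes near them in the genome, not all of them adjacent, were measured for comparison. Cfd, 2637 bases past Elane, had 3 UMIs in the class and 0 outside. Polrmt, a gene of mitochondrial transcription, lies on the other side of the pair beyond Ptbp1 and ends at chr10:79746581. It stood at 11.5 CPM in the class against 9.74 CPM outside (ratio 1.18, 0.954 to 1.45). Ptbp1, next to Prtn3 at 9704 bases, stood at 230 CPM in the class against 186 CPM outside. Mcpt8, a basophil protease gene 14607 bases from Ctsg, was 13.7-fold higher in the class, at 71.6 CPM against 5.24 CPM outside, and had a UMI in 53.7% of class cells. Gzmb, the granzyme B gene of the same locus, stood at 0.230 CPM in the class against 6.21 CPM outside, and Cma1 had 0 UMIs in the class against 644 outside. Ms4a2, 5776 bases from Ms4a3, stood at 3.92 CPM in the class against 0.786 CPM outside (ratio 4.98, 3.27 to 7.43), under 5 CPM on both sides. Among other genes of that family on the chromosome, Ms4a6c was 20.9-fold higher in the class, at 273 CPM against 13.04 CPM outside. Ms4a6b was 1.96-fold higher, and Ms4a4b stood at 7.03 against 8.99 CPM. Lpo, the peroxidase gene 2014 bases from Mpo, and Epx, another beyond it, had 0 UMIs in the class and 5 and 1 outside.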

How the data were processed

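RNA of single thymus cells from 5 hashtagged sorts was measured in 1 Chromium 3′ v3 library. The deposited matrix holds counts (UMIs per gene and barcode, not normalized), made by the authors with Cell Ranger 3.0 on mm10, per the submitters' processing notes. A second deposited table holds hashtag counts. The authors assigned 7948 of 8293 barcodes to a sort and the other 345 entered no comparison. The labels do not state the rule of assignment. Every assigned cell had its own hashtag at 80% or more of at least 20 hashtag counts.

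UMIs were summed per sort and scaled to 1000000. CPM carry exact Poisson intervals, shares exact Clopper-Pearson intervals, and ratios the exact interval of the binomial split of the counts (log-normal for the gated mean over the control), all at 95%. Thinning to 3000 UMIs (seed 20) left out 131 cells. Genes at 5 CPM or more on either side, or in a later rule on both sides, were counted where they differed by 2-fold or more. No p-value was computed, since each sort is 1 sample. The genes named are the 5 described, the 12 with the highest mean r with them, all members of the fixed lists, and flanking genes, the last chosen later. Genes and lists were chosen with earlier results of these data known.

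Promoter windows are RefSeq's and positions GENCODE M21's. Python 3.11.15, NumPy 2.4.6, SciPy 1.17.1, pandas 2.3.3, matplotlib 3.10.9, and R 4.3.3 with edgeR 4.0.16 and DESeq2 1.42.0 (for scaling factors only) were used. The steps were tested on simulated data. Alternatives were other scalings, equal weight per cell, thinning, other class thresholds, no low-count filter, and leaving out the class, the 5% of cells with most UMIs or the 10 highest cells.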

Additional observations from a re-analysis of the deposited data

Results flagged for a closer look

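The 345 barcodes that the authors assigned to no sort entered no comparison. They held Mpo at 645 CPM, against 393 CPM in the control sort, Elane at 397 CPM against 187 CPM, Prtn3 at 503 CPM against 224 CPM, Ctsg at 259 CPM against 164 CPM, and Ms4a3 at 84.6 CPM against 38.8 CPM. All 5 genes thus lay above the control sort in data outside the comparisons. All 5 also lay below the Flt3- Ly6d- HSA-, Flt3+ HSA+ and Flt3+ Ly6d- HSA- sorts. In those sorts Mpo stood at 1565, 798 and 939 CPM and Elane at 675, 658 and 609 CPM. Of these barcodes 21 (6.09%, 3.81% to 9.15%) met the granulocyte-marker rule, and they held 8.41% of the UMIs. Outside the class they had Mpo at 241 CPM and Elane at 0.710 CPM, against 174 CPM and 1.64 CPM in control cells outside the class. Their median cell had 29414 UMIs, against 16040 in the control.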

How the results depend on the processing

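The ratio of the 5 genes summed, Flt3- Ly6d- HSA- over Flt3+ Ly6d- HSA-, was 1.44 and stayed above 1 in every alternative run. It was 1.40 with edgeR's TMM and also with DESeq2's size factors, 1.47 with equal weight per cell, 1.48 at 3000 UMIs, 1.72 without the 10 highest cells of each sort, 2.08 without the class, 2.43 without the 5% of cells with most UMIs, and 1.76 without the class and the 10 highest cells outside it. That last setting was chosen after seeing the data. Flt3+ HSA+ over Flt3+ Ly6d- HSA- was 0.931 and changed side. In the same order it was 0.944 (TMM), 0.942 (DESeq2), 1.03, 1.01, 0.771, 1.45, 0.536 and 1.49. Flt3- Ly6d+ over Flt3- Ly6d- HSA- was 0.0934, and it was 0.197 with equal weight per cell, 0.186 at 3000 UMIs, 0.111 without the 10 highest cells, 0.811 without the class, 0.244 without the 5% deepest cells and 0.962 without the class and the 10 highest cells outside it. The gated mean over the control was 2.53, and it was 2.57 with DESeq2's factors, 2.28 with equal weight, 2.26 at 3000 UMIs, 2.71 without the 10 highest cells, 1.71 without the class, 2.34 without the 5% deepest cells and 1.62 in the last setting. Where the class was left out, its cells' absence is what moved the ratio, and for the other settings the cause was not tested.

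The class share depends on depth and threshold. With 3 of 14 markers it was 4.49% (Flt3- Ly6d+), 13.4% (Flt3- Ly6d- HSA-), 13.96% (Flt3+ HSA+), 12.5% (Flt3+ Ly6d- HSA-) and 6.00% (control). With 5 markers after thinning to 3000 UMIs it was 0%, 2.41%, 2.04%, 2.35% and 0.677% in that order, and with 7 markers 0%, 6.80%, 2.28%, 4.25% and 1.18%. Mpo outside the class with 3 and 7 markers was 343 and 482 CPM in Flt3- Ly6d- HSA-, 194 and 223 CPM in Flt3+ Ly6d- HSA-, and 169 and 183 CPM in the control. It was 341 and 349 CPM in Flt3- Ly6d+ and 298 and 302 CPM in Flt3+ HSA+. Of 40 levels of the other single genes outside the class under other thresholds, 21 moved beyond their interval. Elane in Flt3- Ly6d- HSA- cells was 2.81 CPM with 3 markers and 23.9 CPM with 7, against 12.7 CPM, so the 10.7 to 14.9 CPM interval does not cover that choice.

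With no filter on low counts, more genes were counted at 2-fold. Over all cells they were 1484 instead of 110 for the first comparison, 1263 instead of 30 for the second, 1734 instead of 95 for the third and 1868 instead of 104 for the control. Outside the class they were 1468 instead of 160, 1271 instead of 13, 1438 instead of 40 and 1737 instead of 92. The gain comes from the construction, since genes with few UMIs enter. With 5 CPM or more asked on both sides, a rule added after the values were seen, they were 59, 14, 34 and 57 over all cells and 82, 4, 11 and 48 outside the class, in the same order. No paired analysis was possible because each population was 1 sort, and for the same reason no replicate could be left out. Counting error is the only error these intervals hold, and they do not cover variation between mice or sorts.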

Other observations

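Genes of other cell types were also read in the class. Of all genes with 5 CPM or more on both sides, 3.99% were at least 2-fold higher in the class and 8.79% at least 2-fold lower. Among 3 such monocyte and macrophage genes 2 were higher, Lyz2 and Csf1r, the receptor for the macrophage growth factor, at 31.1 CPM in the class against 9.13 CPM outside. F13a1, at 64.1 CPM in the class against 0.348 CPM outside, and Ccr2, at 53.3 against 4.16 CPM, reached 5 CPM in the class alone. F13a1 differed between class cells of the sorts, at 63.2 CPM in Flt3- Ly6d- HSA-, 57.8 CPM in Flt3+ HSA+, 97.4 CPM in Flt3+ Ly6d- HSA- and 22.1 CPM in control class cells. Of 2 dendritic cell genes at 5 CPM or more on both sides 1, Flt3, was lower. Cd74 stood at 2.30 CPM in the class against 36.8 CPM outside. The B cell gene Cd79b stood at 52.2 CPM in the class against 42.4 CPM outside, while Cd79a and Pax5 had 0 UMIs in the class. Of 2 mast cell and basophil genes at 5 CPM or more on both sides 1, Mcpt8, was higher, and Cpa3 stood at 135 CPM in the class against 217 CPM outside. Cma1 had 0 UMIs in the class. The 3 cytotoxic genes that reached 5 CPM did so outside the class alone, with Gzma at 0.115 CPM in the class against 13.8 CPM outside.

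Ltf, the lactoferrin gene, went the other way from the primary granule genes. It had 178 UMIs in 168 cells outside the class (2.18% of 7704) and 0 in the class. Its level outside the class was 2.74 CPM in the Flt3- Ly6d+ sort, 2.50 CPM in Flt3- Ly6d- HSA-, 1.40 CPM in Flt3+ HSA+, 1.78 CPM in Flt3+ Ly6d- HSA- and 0.867 CPM in the control, at 1 to 2 UMIs in nearly every cell that had any.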
